A study of Homo sapiens with 9 samples.

Results

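The nuclear genes for the subunits of the mitochondrial respiratory chain and of the ATP synthase were followed in PANC-1, an established line of human pancreatic carcinoma cells. They were picked by gene symbol from the GENCODE rows of a table of 112171 annotated features. The choice took the NDUFA, NDUFB, NDUFC, NDUFS and NDUFV subunits of complex I, SDHA to SDHD of complex II, the UQCR subunits and CYC1 of complex III, cytochrome c (CYCS), the COX4I to COX8 subunits of complex IV and the ATP5 subunits of complex V. It gave 88 rows with 84 symbols, of which 78 rows had enough counts to be tested. Of these, 38 belonged to complex I, 4 to complex II, 9 to complex III, 11 to complex IV and 15 to complex V, and 1 was CYCS. NDUFA4, since placed in complex IV, is counted with complex I throughout because of its symbol.

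The cells had spent 12 h under hypoxia in medium that held rakicidin A at 42 nM, BE-43547A1 at 41 nM or the solvent DMSO at 0.04%, with 3 libraries of total RNA in each group. Rakicidin A is a cyclic lipodepsipeptide of bacterial origin. The doses of the compounds differ slightly, the labels do not give the solvent content of the medium with a compound, and no group was kept in normal oxygen. Whether libraries of the same group stem from separate cultures is not given in the labels, and p-values here measure the spread between libraries, which may be technical.

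The respiratory chain passes electrons from NADH through complex I, and from succinate through complex II, by way of coenzyme Q to complex III, cytochrome c, complex IV and oxygen. Complexes I, III and IV pump protons across the inner mitochondrial membrane, and the ATP synthase, complex V, lets them flow back to make ATP. Most subunits are encoded in the nucleus and imported, while a few are made inside the organelle from mitochondrial DNA. In hypoxic tumour cells the chain is known to be remodelled, with some subunits exchanged for others and less flow of electrons. In bulk RNA, fewer cells of a kind and less transcript per cell cannot be told apart.

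Counts on features ran from 26203326 to 34870860 in the rakicidin A libraries, from 39807220 to 45048999 in the BE-43547A1 libraries and from 27696394 to 30596594 in the DMSO libraries. Levels are given as CPM, counts scaled to the size of the library with edgeR's trimmed mean of M-values (TMM). A gene is said to have risen, fallen or passed where edgeR's quasi-likelihood test gave a p below 0.05 after Benjamini-Hochberg adjustment over the 22353 tested features. Changes are log2 fold changes with their SE. Reads on no feature took 16.4 to 17.96% in the rakicidin A libraries, 18.1 to 19.2% in the BE-43547A1 libraries and 20.3 to 20.8% in the DMSO libraries, and their part in the results was not tested. The 5 markers chosen for the tumour line, the epithelial keratins KRT7, KRT8, KRT18 and KRT19 and also VIM, were all tested. They summed to 6651 to 6838 CPM with rakicidin A, 8384 to 9064 CPM with BE-43547A1 and 7297 to 7629 CPM with DMSO. VIM made up most of each sum, with means of 4296, 5237 and 4501 CPM in that order. KRT8 and KRT19 fell with rakicidin A (-0.26 and -0.41). With BE-43547A1 KRT7, KRT8, KRT18 and VIM rose (0.35, 0.45, 0.29 and 0.22). The 5 markers of mature exocrine or endocrine pancreas had at most 1 count in any library. Of 4 leukocyte markers only CD14 and ITGAM were tested, PTPRC had at most 3 counts and CD3E none, and the tested pair summed to 1.60 to 2.02 CPM with rakicidin A, 2.75 to 3.44 CPM with BE-43547A1 and 1.53 to 1.82 CPM with DMSO. Of 5 fibroblast markers COL1A1 and THY1 were tested and summed to 4.70 to 5.97 CPM with rakicidin A, 6.17 to 7.80 CPM with BE-43547A1 and 8.18 to 12.4 CPM with DMSO, with COL1A2 at no more than 11 counts in a library and DCN and LUM at no more than 2. Of 4 muscle markers only ACTN2 was tested, at 1.63 to 1.71 CPM with rakicidin A, 5.18 to 6.20 CPM with BE-43547A1 and 0.227 to 0.336 CPM with DMSO. The endothelial marker CDH5 had at most 2 counts, and PECAM1 had no row. ACTN2 rose with both compounds (2.62 with rakicidin A and 4.36 with BE-43547A1), and COL1A1 fell with both (-1.12 and -0.70). CD14 and ITGAM rose with BE-43547A1 only (2.20 and 0.67), and THY1 fell with rakicidin A only (-0.52). The part of these differences in the results was not tested.

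Summed over the 78 tested subunits, the level came to 5865, 5729.7 and 5796 CPM in the rakicidin A libraries, 6249, 6347 and 6300.4 CPM in the BE-43547A1 libraries and 6851, 6899 and 5977 CPM in the DMSO libraries. The rakicidin A libraries lay below every DMSO library, while the BE-43547A1 libraries lay inside the DMSO range. On total counts alone the sums were 5268, 5146 and 5156 CPM with rakicidin A, 6181, 6144 and 6066 CPM with BE-43547A1 and 7843, 7902 and 6889 CPM with DMSO, so that the BE-43547A1 libraries too lay below every DMSO library. DMSO replicate 3 stood apart from the other DMSO libraries: it held the lowest level of its group for 55 of the 78 subunits. The totals over all subunits are therefore also given without it, and those of a complex or gene list where they moved by more than 1.5 times.

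After rakicidin A, most subunit transcripts were lower than in DMSO. Of the 78 tested, 52 fell (66.7%, against 32.7% of all tested features), 2 rose (2.56%, against 31.9%) and 24 did not pass. In either direction 69.2% of the subunits passed, against 64.7% of all tested features. The median log2 fold change of the subunits was -0.31, against -0.02 over all features, and the falls lay between 0.545 and 0.887 times the DMSO level with a median of 0.763. For 55 subunits the rakicidin A and DMSO libraries did not overlap (67.5% of all tested features had no overlap). Without DMSO replicate 3 the counts were 55 lower (70.5%, against 31.4% of all features) and 2 higher (2.56%, against 30.8%). With total counts alone as the scale, which put the median of all features at -0.36 and that of the subunits at -0.66, 71 fell (91.0%, against 51.0% of all features at that scale) and 1 rose (1.28%, against 20%). With a log2 fold change of at least 0.5 also asked for, 14 subunits fell (17.9%, against 24.2% of all features). Only 2 rose at that size (2.56%, against 24%), so falls outnumbered rises although their share was below that of all features.

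After BE-43547A1 the subunits were split. Of the 78, 28 fell (35.9%, against 35.1% of all tested features), 11 rose (14.1%, against 35.3%) and 39 did not pass, so that 50.0% passed in either direction against 70.4% of all features. In this fit the share that fell was near that of all features. Their median log2 fold change was -0.089, against -0.00026 over all features, and for 36 the libraries of the groups did not overlap (71.6% of all features). The falls reached 0.523 times and the rises 2.28 times the DMSO level. Without DMSO replicate 3, 37 fell (47.4%, against 34.2% of all features) and 12 rose (15.4%, against 34.8%). With total counts alone, where the medians stood at -0.24 for all features and -0.33 for the subunits, 58 fell (74.4%, against 46.7%) and 4 rose (5.13%, against 26.6%). On both of these settings the share that fell was above that of all features. With a log2 fold change of at least 0.5 it was below it (8 subunits or 10.3%, against 25.5%). The share that rose at that size was below it too (3 subunits or 3.85%, against 27.5%).

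Both compounds were set against the same DMSO libraries, so their calls are given side by side. The shares of all features with the same pair of calls were not worked out, so these counts only list the subunits. CYCS and NDUFA11 rose with both, and 25 subunits fell with both. A further 24 fell with rakicidin A without passing for BE-43547A1, and 3, NDUFS1, NDUFV2 and SDHD, fell with BE-43547A1 without passing for rakicidin A. NDUFV2 had fewer counts than its pseudogene row, whose values are given below. ATP5J, ATP5O and NDUFA4 fell with rakicidin A and rose with BE-43547A1. COX6A1, COX6B2, NDUFA13, NDUFB11, NDUFB9 and NDUFS8 rose with BE-43547A1 without passing for rakicidin A, and 15 subunits passed for neither.

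**Figure D1:**
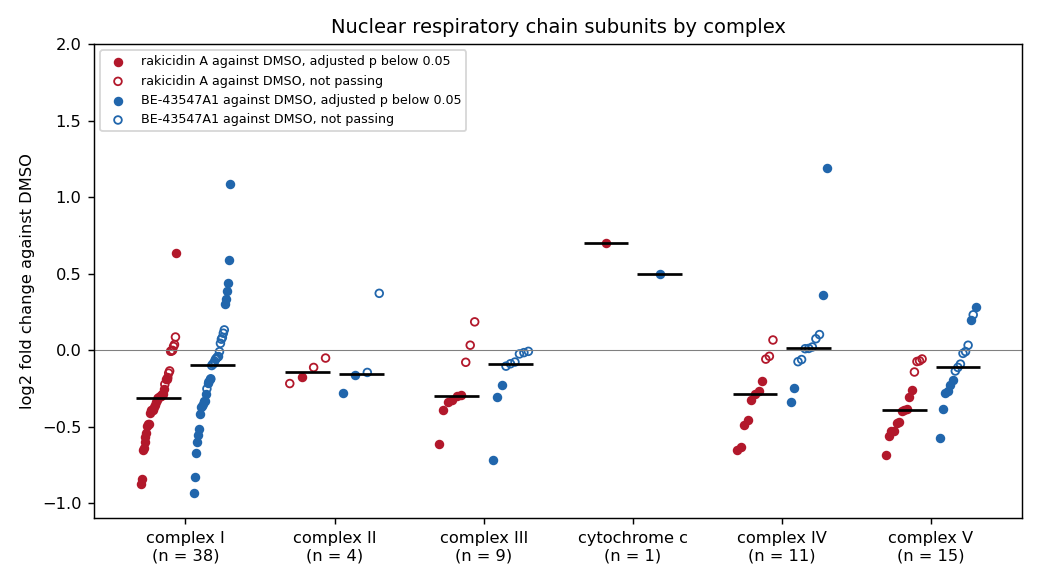
Log2 fold change against DMSO (vertical axis) of each tested subunit, by complex, with rakicidin A in red on the left and BE-43547A1 in blue on the right of each pair. Filled points passed at an adjusted p below 0.05, open points did not, and bars mark the median. The medians with rakicidin A run from -0.39 in complex V to -0.14 in complex II, with CYCS alone at 0.70.

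Cytochrome c, the small haem protein that carries electrons from complex III to complex IV and that triggers caspases when it leaves the mitochondrion, rose with both compounds. CYCS stood at 721, 703 and 731 CPM in the rakicidin A libraries, 591, 636 and 648 CPM in the BE-43547A1 libraries and 481, 466 and 379 CPM in the DMSO libraries. The libraries of the 3 groups did not overlap. The log2 fold change against DMSO was 0.70 ± 0.07 with rakicidin A (± SE, adjusted p = 1.02e-07) and 0.50 ± 0.07 with BE-43547A1 (adjusted p = 6.56e-06). Set against each other, the compounds differed by 0.20 ± 0.07 (adjusted p = 0.0297), a call lost without rakicidin A replicate 1 (0.0618) or 3 (0.075) and without BE-43547A1 replicate 1 (0.141) or 2 (0.0527). Per kilobase of transcript CYCS averaged 738 CPM with rakicidin A, 642 CPM with BE-43547A1 and 454 CPM with DMSO, above every other subunit in each group. Its 20 pseudogene rows together held 1.16% as many counts as the gene.

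NDUFA11, an accessory subunit in the membrane arm of complex I, was the other transcript that rose with both compounds, at a far lower level. It had 3.68, 3.36 and 2.96 CPM in the rakicidin A libraries, 5.71, 3.88 and 4.08 CPM in the BE-43547A1 libraries and 2.51, 1.93 and 2.02 CPM in the DMSO libraries. Neither compound overlapped with DMSO. The change was 0.64 ± 0.18 with rakicidin A (adjusted p = 0.00472) and 1.09 ± 0.17 with BE-43547A1 (adjusted p = 1.22e-05). The rise with rakicidin A did not pass with total counts alone (0.28, adjusted p = 0.188). The direct difference of -0.45 ± 0.16 (adjusted p = 0.0283) was lost without BE-43547A1 replicate 1 (adjusted p = 0.201) and without rakicidin A replicate 2 (0.0752) or 3 (0.121).

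The 250 bases upstream of the start of these 2 genes are printed because they were the only subunits to rise with both compounds. Capitals mark the core letters of the NRF1 site (GCATGCGC) and of a cyclic AMP response element (TGACG, here on the reverse strand as CGTCA), the factors best known for the CYCS promoter. The sequences are from RefSeq on GRCh38.p14, at chr7:25125261-25125510 on the minus strand for CYCS and chr19:5903791-5904040 on the minus strand for NDUFA11.
CYCS: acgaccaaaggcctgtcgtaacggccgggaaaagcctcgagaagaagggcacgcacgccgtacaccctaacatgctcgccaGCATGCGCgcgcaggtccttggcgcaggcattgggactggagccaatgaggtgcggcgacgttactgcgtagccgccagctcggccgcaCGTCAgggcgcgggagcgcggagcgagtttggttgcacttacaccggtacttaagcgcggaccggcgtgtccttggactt
NDUFA11: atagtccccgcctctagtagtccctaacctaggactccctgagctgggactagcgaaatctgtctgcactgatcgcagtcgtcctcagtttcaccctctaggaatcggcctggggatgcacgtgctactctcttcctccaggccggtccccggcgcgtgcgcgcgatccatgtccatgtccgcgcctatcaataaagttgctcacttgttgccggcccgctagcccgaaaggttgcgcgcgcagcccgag
The CYCS window held both, with the NRF1 letters beginning at base -169 and the response element at base -80 from the start. In the NDUFA11 window neither was found.

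Complex I, the NADH dehydrogenase, is built from a small core that carries the flavin, the iron-sulphur clusters and the quinone site, and from many accessory subunits around it. With rakicidin A, 26 of its 38 tested subunits fell, 1 rose and 11 did not pass (median -0.31). With BE-43547A1, 15 fell, 6 rose and 17 did not pass (median -0.097). In either direction 71.1% passed with rakicidin A and 55.3% with BE-43547A1. The counts of this and the following complexes and their parts stand beside the shares of all features. With rakicidin A 32.7% of all features fell and 31.9% rose (64.7% in either direction), and with BE-43547A1 35.1% and 35.3% (70.4%). Of the 7 nuclear core subunits, 3 fell and 0 rose with rakicidin A (median -0.19), while 4 fell and 1 rose with BE-43547A1 (median -0.19). Of the 31 accessory subunits tested, 23 fell and 1 rose with rakicidin A (median -0.34), while 11 fell and 5 rose with BE-43547A1 (median -0.092).

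Among the core, NDUFS3, which is needed early in core assembly, had 27.1, 26.6 and 27.5 CPM with rakicidin A, 21.7, 17.1 and 19.3 CPM with BE-43547A1 and 32.2, 29.7 and 30.9 CPM with DMSO. It fell by 0.67 ± 0.08 on the log2 scale with BE-43547A1 (adjusted p = 4.32e-07). Its smaller fall with rakicidin A (-0.19 ± 0.08, adjusted p = 0.0416) was lost when any rakicidin A library, DMSO replicate 1 or BE-43547A1 replicate 3 was left out, and also with DESeq2's size factors (adjusted p = 0.0563), with no filter on low counts (0.0522) and in DESeq2 itself (0.136).

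The core subunits NDUFS1 and NDUFS8, both carriers of iron-sulphur clusters, moved apart with BE-43547A1. NDUFS1, the largest subunit of the electron input module, averaged 327 ± 4.12 CPM with rakicidin A, 280.2 ± 5.13 CPM with BE-43547A1 and 319 ± 27.5 CPM with DMSO (SD, n = 3 each). Its fall with BE-43547A1 of 0.19 ± 0.06 (adjusted p = 0.00946) was lost without BE-43547A1 replicate 2 (adjusted p = 0.0526) or DMSO replicate 1 (0.0543). NDUFS8 had 30.6, 27.4 and 28.4 CPM with rakicidin A, 39.5, 36.5 and 34.8 CPM with BE-43547A1 and 29.3, 28.2 and 27.4 CPM with DMSO. The BE-43547A1 libraries lay above all others, a rise of 0.38 ± 0.07 (adjusted p = 6.48e-05), while the rakicidin A value of 0.02 ± 0.07 did not pass. The NDUFS8 rise did not pass with total counts alone (0.15).

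The accessory subunit with the lowest level relative to DMSO after rakicidin A was NDUFB3, a membrane-arm subunit. It had 16.6, 17.0 and 17.2 CPM with rakicidin A, 26.8, 24.5 and 22.7 CPM with BE-43547A1 and 33.0, 33.2 and 27.1 CPM with DMSO. The groups were ordered with no overlap, and NDUFB3 fell by 0.87 ± 0.09 with rakicidin A (adjusted p = 5.84e-08) and by 0.33 ± 0.08 with BE-43547A1 (adjusted p = 0.00157). NDUFS5, an accessory subunit on the intermembrane side, had 101, 91.3 and 95.6 CPM with rakicidin A, 133, 145 and 153 CPM with BE-43547A1 and 145, 169 and 135 CPM with DMSO. Only the rakicidin A libraries stood apart, with a fall of 0.64 ± 0.08 (adjusted p = 5.34e-07), against -0.06 ± 0.07 with BE-43547A1 (adjusted p = 0.488).

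NDUFV3, an accessory subunit of the NADH-binding module, fell with both compounds and more with BE-43547A1. Its level was 22.1, 21.5 and 22.4 CPM with rakicidin A, 17.2, 17.9 and 17.3 CPM with BE-43547A1 and 32.7, 34.1 and 33.4 CPM with DMSO. No groups overlapped. The changes were -0.60 ± 0.06 (adjusted p = 1.4e-07) with rakicidin A and -0.94 ± 0.06 (adjusted p = 2.41e-10) with BE-43547A1, and the direct difference was 0.33 ± 0.07 (adjusted p = 0.000411).

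NDUFB9, a membrane-arm subunit, had 77.8, 75.9 and 72.9 CPM with rakicidin A, 105, 105 and 99.1 CPM with BE-43547A1 and 75.8, 78.5 and 73.5 CPM with DMSO. It rose with BE-43547A1 by 0.44 ± 0.05 (adjusted p = 8.61e-07), and its rakicidin A and DMSO libraries overlapped (-0.01 ± 0.06, adjusted p = 0.927). NDUFA4, named for complex I and counted there though since placed in complex IV, had 31.5, 32.6 and 30.97 CPM with rakicidin A, 55.5, 48.8 and 45.8 CPM with BE-43547A1 and 41.3, 43.97 and 34.2 CPM with DMSO. With rakicidin A every library lay below DMSO (-0.33 ± 0.09, adjusted p = 0.003) and with BE-43547A1 every library lay above it (0.33 ± 0.08, adjusted p = 0.00185). The rise of NDUFA4 with BE-43547A1 did not pass with total counts alone (0.095).

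**Figure D2:**
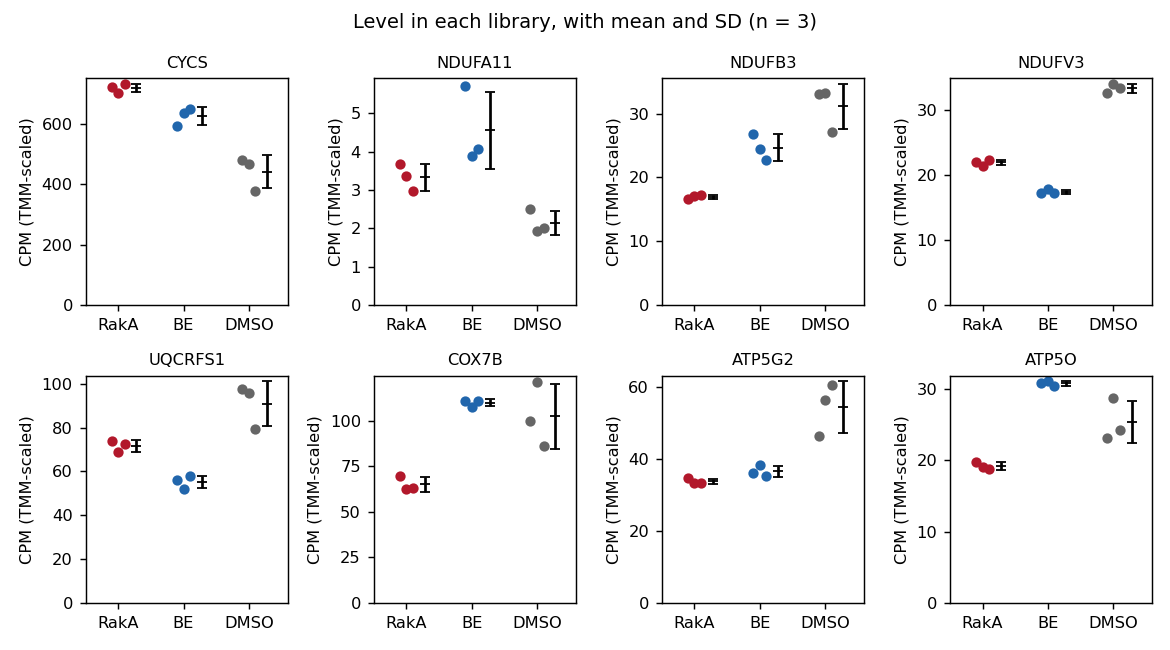
TMM-scaled level (CPM, linear axis from 0) of 8 subunit genes in each library, with rakicidin A (RakA) in red, BE-43547A1 (BE) in blue and DMSO in grey, and the mean with SD (n = 3) beside the points. CYCS and NDUFA11 lie above DMSO with both compounds, NDUFB3, NDUFV3, UQCRFS1 and ATP5G2 below it with both, and ATP5O below it with rakicidin A and above it with BE-43547A1.

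Complex II, succinate dehydrogenase, is the only complex with no subunit from mitochondrial DNA, and it also works in the tricarboxylic acid cycle. With rakicidin A 1 of its 4 tested subunits fell and 3 did not pass (median -0.14), and with BE-43547A1 2 fell and 2 did not pass (median -0.16). Without DMSO replicate 3, 2 fell with rakicidin A, and 3 fell and 1 rose with BE-43547A1. SDHA, the flavoprotein that oxidises succinate, had 106, 107 and 109 CPM with rakicidin A, 110.0, 106 and 109 CPM with BE-43547A1 and 128, 119 and 117 CPM with DMSO. Its falls were small, -0.17 ± 0.05 with rakicidin A (adjusted p = 0.00854) and -0.16 ± 0.05 with BE-43547A1 (adjusted p = 0.0105). That with rakicidin A was lost without rakicidin A replicate 1 (0.0534) or 2 (0.0501) or DMSO replicate 1 (0.0543), and that with BE-43547A1 without its replicate 2 (0.0778).

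SDHB, the iron-sulphur subunit, averaged 141 ± 2.07 CPM with rakicidin A, 138 ± 6.38 CPM with BE-43547A1 and 152 ± 19.2 CPM with DMSO (SD, n = 3 each). Neither difference passed (-0.11 ± 0.07 with rakicidin A and -0.15 ± 0.07 with BE-43547A1). DMSO replicate 3 had the lowest SDHB level of its group at 131 CPM, and without it SDHB fell by 0.21 with rakicidin A (adjusted p = 0.00106) and by 0.25 with BE-43547A1 (adjusted p = 0.000146). SDHD, a membrane anchor that binds haem with SDHC, averaged 65.95 ± 3.41 CPM with rakicidin A, 56.4 ± 4.83 CPM with BE-43547A1 and 68.4 ± 9.43 CPM with DMSO. Its fall with BE-43547A1 (-0.28 ± 0.08, adjusted p = 0.00652) was lost without BE-43547A1 replicate 2 (0.0617) or DMSO replicate 1 (0.053). SDHC, the other anchor, was counted at only 1.33 to 1.92 CPM with rakicidin A, 2.17 to 2.77 CPM with BE-43547A1 and 1.36 to 2.78 CPM with DMSO, and passed for neither compound. Without DMSO replicate 3, whose SDHC level was the highest of its group, SDHC passed as a rise with BE-43547A1 (0.79, adjusted p = 0.00178).

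Complex III, the cytochrome bc1 complex, hands electrons from coenzyme Q to cytochrome c. With rakicidin A 6 of its 9 tested subunits fell and 3 did not pass (median -0.30), and with BE-43547A1 3 fell and 6 did not pass (median -0.089). The share that fell with BE-43547A1, 33.3%, was near the 35.1% of all features. UQCRFS1, the Rieske iron-sulphur protein at the catalytic site, fell with both compounds and lay lowest with BE-43547A1. It had 73.9, 68.8 and 72.5 CPM with rakicidin A, 55.9, 52.1 and 57.7 CPM with BE-43547A1 and 97.6, 95.9 and 79.3 CPM with DMSO, with no overlap between groups. It fell by 0.34 ± 0.07 with rakicidin A (adjusted p = 0.000423) and by 0.72 ± 0.07 with BE-43547A1 (adjusted p = 5.52e-08), and rakicidin A stood 0.38 ± 0.07 above BE-43547A1 (adjusted p = 0.000326).

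UQCRH, the acidic hinge subunit next to cytochrome c1, differed between the compounds. It had 111, 91.3 and 98.8 CPM with rakicidin A, 124, 140.2 and 164 CPM with BE-43547A1 and 141, 179 and 141 CPM with DMSO. Only rakicidin A passed, with a fall of 0.61 ± 0.10 (adjusted p = 2.94e-05) against -0.11 ± 0.10 with BE-43547A1 (adjusted p = 0.352). CYC1, cytochrome c1, the haem subunit that reduces cytochrome c, averaged 99.8 ± 4.82 CPM with rakicidin A, 104 ± 6.78 CPM with BE-43547A1 and 106 ± 9.38 CPM with DMSO and passed for neither (-0.08 ± 0.07 with rakicidin A and -0.02 ± 0.07 with BE-43547A1). Its partner CYCS, which it reduces, rose with both compounds.

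The core protein UQCRC1 fell with both compounds, by 0.30 ± 0.06 with rakicidin A (adjusted p = 0.000273) and 0.23 ± 0.06 with BE-43547A1 (adjusted p = 0.00261). The small subunit UQCR10 also fell with both (-0.33 ± 0.09 with rakicidin A and -0.31 ± 0.09 with BE-43547A1). UQCRB, a subunit at the quinone site, averaged 124.6 ± 4.27 CPM with rakicidin A, 161 ± 10.6 CPM with BE-43547A1 and 163 ± 21.0 CPM with DMSO, a fall of 0.39 ± 0.08 with rakicidin A (adjusted p = 0.000214). UQCRQ fell with rakicidin A as well (-0.29 ± 0.07, adjusted p = 0.00211), and its value with BE-43547A1 (-0.09) passed without DMSO replicate 3 (-0.16). UQCR11 passed for neither compound against DMSO (0.18 ± 0.08 with rakicidin A, adjusted p = 0.0573, and -0.08 with BE-43547A1), and its rakicidin A value passed without rakicidin A replicate 2, BE-43547A1 replicate 3 or DMSO replicate 1 (0.24, 0.20 and 0.22), and on all libraries with DESeq2's size factors (0.20, adjusted p = 0.0417). It also passed in a fit of the 6 rakicidin A and DMSO libraries (0.21, adjusted p = 0.0485).

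Complex IV, cytochrome c oxidase, passes the electrons to oxygen. Its nuclear subunits surround a core made from mitochondrial DNA, and several exist as ubiquitous and tissue-restricted isoforms. With rakicidin A 8 of 11 tested subunits fell and 3 did not pass (median -0.29), and with BE-43547A1 2 fell, 2 rose and 7 did not pass (median 0.011), with 4 falls and 2 rises without DMSO replicate 3. Their summed level was 736 to 786 CPM with rakicidin A, 941 to 971 CPM with BE-43547A1 and 846 to 1057 CPM with DMSO. NDUFA4, counted with complex I, is not among them, and it fell with rakicidin A and rose with BE-43547A1.

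COX7B, a small subunit needed for assembly of the complex, had 69.5, 62.3 and 63.1 CPM with rakicidin A, 111, 107 and 111 CPM with BE-43547A1 and 99.6, 121 and 85.9 CPM with DMSO. The rakicidin A libraries lay below all others, a fall of 0.65 ± 0.09 (adjusted p = 3.47e-06), while the BE-43547A1 libraries lay inside the DMSO range (0.10 ± 0.09, adjusted p = 0.309). Without DMSO replicate 2 the COX7B value with BE-43547A1 passed as a rise (0.24). COX5B, which binds zinc on the matrix side, had 56.2, 44.5 and 52.7 CPM with rakicidin A, 56.2, 62.01 and 69.3 CPM with BE-43547A1 and 76.6, 90.0 and 70.9 CPM with DMSO. It fell with both, by 0.63 ± 0.09 (adjusted p = 1.09e-05) with rakicidin A and 0.34 ± 0.09 (adjusted p = 0.00312) with BE-43547A1.

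The ubiquitous isoforms were compared with their tissue-restricted partners. COX4I1, the regulatory subunit, averaged 119 ± 5.27 CPM with rakicidin A, 151 ± 5.33 CPM with BE-43547A1 and 143 ± 12.0 CPM with DMSO and fell with rakicidin A (-0.27 ± 0.06, adjusted p = 0.00113). Its partner COX4I2, known to be induced by hypoxia in some cells, had at most 1 count in any library. COX6B1, at the dimer interface, fell with rakicidin A (-0.49 ± 0.07, adjusted p = 3.86e-06) and did not pass with BE-43547A1 (-0.08 ± 0.07). Its partner COX6B2, best known from testis, was counted at 0.546, 0.384 and 0.644 CPM with rakicidin A, 1.24, 1.26 and 0.863 CPM with BE-43547A1 and 0.367, 0.474 and 0.625 CPM with DMSO. COX6B2 rose with BE-43547A1 by 1.19 ± 0.27 (adjusted p = 0.000645), from a level far below that of COX6B1.

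COX6A1 had 20.1, 18.8 and 18.9 CPM with rakicidin A, 26.7, 26.0 and 24.7 CPM with BE-43547A1 and 19.2, 23.6 and 17.5 CPM with DMSO. The BE-43547A1 libraries lay above the rest, a rise of 0.36 ± 0.09 (adjusted p = 0.00139) that did not pass with total counts alone (0.13). The pseudogene row COX6A1P2, which held more counts than the gene, did not pass with BE-43547A1 (0.15, adjusted p = 0.144). COX7C, a small membrane subunit, fell with rakicidin A (-0.46 ± 0.07, adjusted p = 1.62e-05), and COX7A2, a subunit at the dimer interface, fell with rakicidin A (-0.32 ± 0.08, adjusted p = 0.00204) and with BE-43547A1 (-0.25 ± 0.08, adjusted p = 0.0107). The COX7A2 call with BE-43547A1 was lost without its replicate 2 or without DMSO replicate 1. COX8A passed for neither compound. The muscle and testis partners COX6A2, COX7A1, COX7B2 and COX8C had 0 to 4 counts in a library and were not tested.

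Complex V, the ATP synthase, consists of the catalytic F1 part in the matrix, a peripheral stalk and the membrane part Fo with its ring of c subunits. With rakicidin A 11 of its 15 tested subunits fell and 4 did not pass (median -0.39), and with BE-43547A1 6 fell, 2 rose and 7 did not pass (median -0.11). Of the 5 F1 subunits, 3 fell and 0 rose with each compound. Without DMSO replicate 3, 1 of them rose with BE-43547A1. Of the 10 subunits of stalk and Fo, 8 fell and 0 rose with rakicidin A (median -0.47), while 3 fell and 2 rose with BE-43547A1 (median -0.10). Without DMSO replicate 3 those counts with BE-43547A1 were 5 and 2.

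The ring subunit c is made from 3 genes, ATP5G1, ATP5G2 and ATP5G3, whose mature protein is the same while the import signal differs. ATP5G2 had 34.6, 33.3 and 33.3 CPM with rakicidin A, 36.1, 38.2 and 35.1 CPM with BE-43547A1 and 46.4, 56.2 and 60.4 CPM with DMSO. It fell with both, by 0.69 ± 0.08 (adjusted p = 4.41e-07) with rakicidin A and 0.58 ± 0.08 (adjusted p = 2.84e-06) with BE-43547A1, and the direct difference of -0.11 did not pass (95% interval -0.28 to 0.06). ATP5G3 had 24.5, 28.1 and 27.8 CPM with rakicidin A, 32.5, 31.2 and 31.7 CPM with BE-43547A1 and 37.0, 37.0 and 38.05 CPM with DMSO, and fell by 0.48 ± 0.07 (adjusted p = 4.26e-06) with rakicidin A and 0.23 ± 0.06 (adjusted p = 0.0037) with BE-43547A1. ATP5G1 had 28.1, 32.8 and 29.6 CPM with rakicidin A, 33.2, 35.3 and 30.9 CPM with BE-43547A1 and 32.3, 34.5 and 33.3 CPM with DMSO. Its groups overlapped and the gene passed for neither compound (-0.14 ± 0.07 with rakicidin A, 95% interval -0.30 to 0.01, and -0.01 ± 0.07 with BE-43547A1, -0.16 to 0.14). ATP5G1 passed with rakicidin A only without rakicidin A replicate 2 (-0.19, adjusted p = 0.045) and with total counts alone.

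For the c genes ATP5G1 and ATP5G2, whose calls differed, the upstream 250 bases are set side by side, from RefSeq on GRCh38.p14, at chr17:48892537-48892786 on the plus strand for ATP5G1 (ATP5MC1 in RefSeq) and chr12:53676084-53676333 on the minus strand for ATP5G2 (ATP5MC2). No window was at hand for ATP5G3, which also fell with both compounds. Capitals mark the same motifs as above.
ATP5G1: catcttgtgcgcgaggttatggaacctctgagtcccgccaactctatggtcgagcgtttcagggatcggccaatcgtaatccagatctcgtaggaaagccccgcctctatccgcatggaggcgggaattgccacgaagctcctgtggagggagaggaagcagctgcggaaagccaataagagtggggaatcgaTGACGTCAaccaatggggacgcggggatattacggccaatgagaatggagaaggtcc
ATP5G2: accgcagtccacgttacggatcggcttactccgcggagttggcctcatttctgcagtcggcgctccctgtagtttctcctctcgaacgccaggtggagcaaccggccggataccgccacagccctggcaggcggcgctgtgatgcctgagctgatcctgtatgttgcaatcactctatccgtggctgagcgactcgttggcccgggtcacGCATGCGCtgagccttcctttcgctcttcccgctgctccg
The ATP5G1 window held the response element letters on both strands, overlapping as a palindrome. The ATP5G2 window held the NRF1 letters, beginning at base -40. The part of these letters in the calls was not tested.

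ATP5O, the stalk subunit that ties F1 to Fo, had 19.8, 19.1 and 18.8 CPM with rakicidin A, 30.8, 31.2 and 30.4 CPM with BE-43547A1 and 23.1, 28.7 and 24.2 CPM with DMSO. The compounds lay on opposite sides of DMSO with no overlap, -0.40 ± 0.08 with rakicidin A (adjusted p = 0.00026) and 0.28 ± 0.08 with BE-43547A1 (adjusted p = 0.00282). ATP5J, another stalk subunit, had 24.0, 26.2 and 25.3 CPM with rakicidin A, 36.7, 41.6 and 35.4 CPM with BE-43547A1 and 34.2, 32.9 and 32.1 CPM with DMSO, and gave -0.39 ± 0.07 with rakicidin A (adjusted p = 0.000105) and 0.20 ± 0.07 with BE-43547A1 (adjusted p = 0.0177). Neither rise held with total counts alone: ATP5O stood at 0.046 and ATP5J turned to -0.042. The ATP5J rise was also lost without BE-43547A1 replicate 2 (0.14, adjusted p = 0.103).

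ATP5L, subunit g of the membrane part, averaged 96.0 ± 4.61 CPM with rakicidin A, 128 ± 5.75 CPM with BE-43547A1 and 139 ± 11.6 CPM with DMSO, a fall of 0.53 ± 0.06 with rakicidin A (adjusted p = 8.83e-07). Its value with BE-43547A1 (-0.11 ± 0.06) passed without DMSO replicate 3. The related ATP5L2 had 2 to 14 counts in a library and was not tested. ATP5H, subunit d of the stalk, fell with both compounds (-0.47 ± 0.07 with rakicidin A and -0.28 ± 0.06 with BE-43547A1), as did ATP5E, the epsilon subunit of F1 (-0.39 ± 0.08 with rakicidin A and -0.38 ± 0.08 with BE-43547A1). The pseudogene row ATP5EP2 passed for neither (-0.16 with rakicidin A, adjusted p = 0.188, and 0.14 with BE-43547A1, adjusted p = 0.234).

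Set directly against BE-43547A1, rakicidin A gave lower levels for 42 of the 78 subunits (53.8%, against 22.5% of all tested features) and higher levels for 8 (10.3%, against 24.1%), while 28 did not pass. In either direction 64.1% passed, against 46.6% of all features. The median was -0.22, against -0.02 over all features, and the libraries of 54 subunits did not overlap (57.6% of all features). With total counts alone, where the medians were -0.12 for all features and -0.34 for the subunits, 52 were lower (66.7%, against 30.7% of all features) and 4 higher (5.13%, against 17.6%). With a log2 fold change of at least 0.5, 11 were lower (14.1%, against 14.8%) and 1 was higher (1.28%, against 11%). The number of higher subunits was 5 (6.41%) without rakicidin A replicate 3 or without BE-43547A1 replicate 2, against 20.1% and 20.7% of all features.

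By complex, rakicidin A was lower for 9 of 11 subunits of complex IV and higher for 0 (median -0.34). In complex I it was lower for 22 and higher for 4 of 38 (median -0.27), in complex V lower for 7 and higher for 0 of 15 (median -0.19), in complex III lower for 3 and higher for 2 of 9 (median -0.063), and in complex II lower for 1 and higher for 1 of 4 (median 0.012). Within complex V, 7 of the 10 stalk and Fo subunits were lower and 0 of the 5 F1 subunits passed in either direction. The core of complex I was split, with 3 subunits higher and 3 lower of 7, whereas 19 of the 31 accessory subunits were lower and 1 was higher. These counts stand beside 22.5% of all features that were lower and 24.1% that were higher. Whether the shares differ between complexes was not tested.

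Among the named subunits above 10 CPM, the compounds differed most in COX7B (-0.76 ± 0.09, adjusted p = 1.59e-06), ATP5O (-0.68 ± 0.08, adjusted p = 1.24e-06), NDUFA4 (-0.66 ± 0.09, adjusted p = 5.43e-06) and ATP5J (-0.59 ± 0.07, adjusted p = 2.23e-06). COX6B2, at a low level, differed by -1.12 ± 0.28 (adjusted p = 0.00272), and SDHC by -0.59 ± 0.24 (adjusted p = 0.0498), a call that was lost without any 1 of 5 libraries: rakicidin A replicate 1 or 3 or any BE-43547A1 replicate. In the other direction rakicidin A lay above BE-43547A1 for CYCS, as given above, and for NDUFS3 (0.48 ± 0.08, adjusted p = 7.52e-05), UQCRFS1, NDUFV3 and NDUFS1 (0.22 ± 0.06, adjusted p = 0.00498). SDHD (0.23 ± 0.08) and UQCR11 (0.26 ± 0.08) were also higher, and both calls were lost without rakicidin A replicate 3. The SDHD call was also lost without rakicidin A replicate 2 or BE-43547A1 replicate 2 or 3. The eighth was NDUFV2, named after its value was seen (0.51 ± 0.16, adjusted p = 0.012), a core subunit whose pseudogene row NDUFV2P1 held 725% as many counts as the gene. That row fell with rakicidin A (-0.54, adjusted p = 1.76e-06) and with BE-43547A1 (-0.76, adjusted p = 1.42e-08), while NDUFV2 itself passed only with BE-43547A1.

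**Figure D3:**
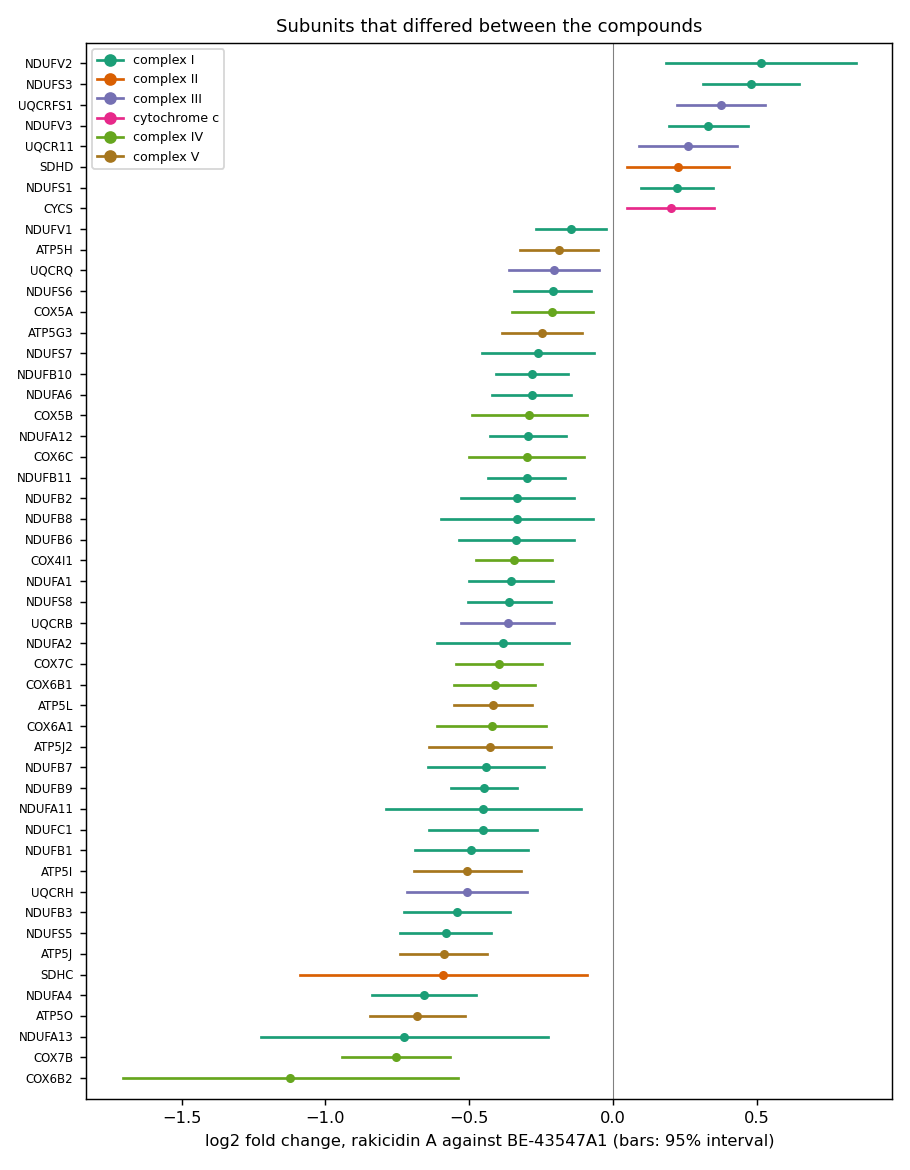
Log2 fold change of rakicidin A against BE-43547A1 (horizontal axis) with its 95% interval for the 50 subunits that passed in this comparison, coloured by complex. The 8 with higher levels after rakicidin A stand at the top and the 42 with lower levels below them, down to COX6B2 at -1.12.

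Assembly factors insert cofactors and join subunits without staying in the finished complex. The counts of this and the following gene lists stand beside 32.7% of all features that fell and 31.9% that rose with rakicidin A (64.7% in either direction), and 35.1% and 35.3% with BE-43547A1 (70.4%). Of 13 factors for complex I, 7 fell and 3 rose with rakicidin A, and 8 fell and 2 rose with BE-43547A1, so that 76.9% passed with each. NDUFAF5, which modifies a core subunit, fell by 0.67 ± 0.09 with rakicidin A and 0.98 ± 0.09 with BE-43547A1, NDUFAF1 by 0.57 ± 0.09 with rakicidin A and 0.74 ± 0.08 with BE-43547A1, and ECSIT rose by 0.67 ± 0.08 with each. Of 4 factors for complex II, 3 fell with each compound, and SDHAF4, listed as C6orf57, which joins to SDHA, fell by 1.03 ± 0.13 with rakicidin A and 0.99 ± 0.12 with BE-43547A1. The others were SDHAF3, listed as ACN9 (-0.80 ± 0.09 with rakicidin A and -0.78 ± 0.09 with BE-43547A1), and SDHAF1 (-0.80 ± 0.18 with rakicidin A and -1.27 ± 0.18 with BE-43547A1), both needed for the iron-sulphur clusters of SDHB.

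Of 6 factors for complex III, 4 fell and 2 rose with rakicidin A, and 3 fell and 1 rose with BE-43547A1. LYRM7 and BCS1L serve the Rieske protein UQCRFS1, LYRM7 as its chaperone in the matrix. LYRM7 had 24.3, 23.5 and 25.7 CPM with rakicidin A, 21.5, 22.9 and 26.3 CPM with BE-43547A1 and 53.0, 55.9 and 53.7 CPM with DMSO, changes of -1.15 ± 0.07 (adjusted p = 1.11e-10) with rakicidin A and -1.20 ± 0.07 (adjusted p = 4.14e-11) with BE-43547A1. BCS1L, which puts the Rieske protein into place, fell by 0.30 ± 0.08 with rakicidin A and 0.75 ± 0.08 with BE-43547A1, and UQCC3, listed as C11orf83, by 0.91 ± 0.10 with rakicidin A and 0.44 ± 0.10 with BE-43547A1.

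Of 24 factors for complex IV, 13 fell and 4 rose with rakicidin A, and 14 fell and 3 rose with BE-43547A1. With each compound 70.8% passed, near the share of all features. COX15, an enzyme of haem a synthesis, fell by 0.64 ± 0.06 with rakicidin A and 0.74 ± 0.06 with BE-43547A1, COA1 by 0.70 ± 0.06 with rakicidin A and 1.24 ± 0.06 with BE-43547A1, and COA5 by 1.06 ± 0.09 with rakicidin A and 1.34 ± 0.09 with BE-43547A1. Of 3 factors for complex V, ATPAF1, a chaperone of the beta subunit, fell with both (-0.54 ± 0.08 with rakicidin A and -0.30 ± 0.08 with BE-43547A1), and TMEM70, which serves the c ring, rose with rakicidin A (0.28 ± 0.07) and fell with BE-43547A1 (-0.37 ± 0.07). The TMEM70 rise turned to -0.078 with total counts alone. ATPAF2 passed for neither.

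Subunits and partners whose symbols the choice did not cover gave 5 falls and 1 rise among 8 tested with rakicidin A and 3 falls and 1 rise with BE-43547A1 (5 and 0 without DMSO replicate 3). ATPIF1, the inhibitor of the ATP synthase, fell with both (-0.47 ± 0.06 with rakicidin A and -0.21 ± 0.06 with BE-43547A1), as did ATP5S (-0.74 ± 0.10 with rakicidin A and -0.79 ± 0.09 with BE-43547A1), and C14orf2, a small subunit of the synthase, fell with rakicidin A (-0.60 ± 0.07) and did not pass with BE-43547A1 (-0.12 ± 0.07). NDUFA4L2, a relative of NDUFA4 that is known as a HIF target, had 2.15, 1.76 and 2.23 CPM with rakicidin A, 0.562, 0.889 and 0.706 CPM with BE-43547A1 and 0.520, 0.632 and 0.767 CPM with DMSO. It rose with rakicidin A by 1.66 ± 0.23 (adjusted p = 4.4e-06), and the compounds differed by 1.502 ± 0.22 (adjusted p = 1.78e-05).

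The genes linked to hypoxic remodelling of the chain numbered 5 tested, NDUFA4L2 included, of which 3 rose and 2 fell with rakicidin A and 1 rose and 1 fell with BE-43547A1 (2 fell without DMSO replicate 3). LONP1, the matrix protease that breaks down COX4I1 in hypoxia, rose with both (0.72 ± 0.05 with rakicidin A and 0.77 ± 0.05 with BE-43547A1). MIR210HG, the host transcript of a hypoxia-induced microRNA, fell with both (-1.05 ± 0.12 with rakicidin A and -1.55 ± 0.12 with BE-43547A1).

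Among 8 tested regulators of respiratory genes, 4 rose and 1 fell with rakicidin A (2 fell without DMSO replicate 3), and 3 rose and 3 fell with BE-43547A1. GABPB1, the partner of the ETS factor GABPA, had 104, 104 and 109 CPM with rakicidin A, 80.1, 82.5 and 84.3 CPM with BE-43547A1 and 50.8, 48.3 and 43.1 CPM with DMSO, changes of 1.15 ± 0.06 (adjusted p = 8.35e-12) with rakicidin A and 0.80 ± 0.06 (adjusted p = 1.58e-09) with BE-43547A1. GABPA itself, named after its value was seen, did not pass with rakicidin A (-0.03 ± 0.07, adjusted p = 0.704). It fell with BE-43547A1 (-0.33 ± 0.07, adjusted p = 2e-04). PPRC1, a coactivator of NRF1, rose by 1.02 ± 0.06 with rakicidin A and 0.86 ± 0.06 with BE-43547A1, and PPARGC1B, a coactivator of the same family, fell by 1.86 ± 0.12 with rakicidin A and 1.58 ± 0.11 with BE-43547A1.

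The genes of coenzyme Q synthesis fell in 7 and rose in 3 of 12 cases with rakicidin A and fell in 9 and rose in 1 with BE-43547A1, so that 83.3% passed with each. COQ9, a lipid-binding member of the pathway, fell by 0.40 ± 0.06 with rakicidin A and 0.79 ± 0.06 with BE-43547A1 and ADCK3 by 0.77 ± 0.09 with rakicidin A and 1.10 ± 0.09 with BE-43547A1. COQ10B, a binding protein of the finished molecule, rose by 1.65 ± 0.07 with rakicidin A and 1.497 ± 0.07 with BE-43547A1. Around cytochrome c, HCCS, the enzyme that attaches its haem, rose with both compounds (0.55 ± 0.07 with rakicidin A and 0.52 ± 0.07 with BE-43547A1), and so did CASP9, the caspase it activates (1.26 ± 0.16 with rakicidin A and 0.82 ± 0.16 with BE-43547A1). APAF1, the platform of the apoptosome, rose with rakicidin A (0.24 ± 0.07) and fell with BE-43547A1 (-0.46 ± 0.07), and the APAF1 rise turned to -0.12 with total counts alone.

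Of 7 carriers of ADP, ATP and phosphate and porins, 4 fell and 1 rose with rakicidin A and 3 fell and 1 rose with BE-43547A1. SLC25A4 and SLC25A6 are ADP/ATP carriers, and the first fell with both compounds (-0.39 ± 0.08 with rakicidin A and -0.47 ± 0.08 with BE-43547A1) while the second rose with both (0.34 ± 0.09 with rakicidin A and 0.91 ± 0.09 with BE-43547A1). The SLC25A6 rise with rakicidin A stood at -0.023 with total counts alone. VDAC3, a porin of the outer membrane, fell with both (-0.43 ± 0.08 each).

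Among the 13 subunits made from mitochondrial DNA, 8 fell and 0 rose with rakicidin A and 6 fell and 0 rose with BE-43547A1. In either direction 61.5% passed with rakicidin A, against 64.7% of all features, and 46.2% with BE-43547A1, against 70.4%. Without DMSO replicate 3, 5 fell and 2 rose with rakicidin A, and 3 fell and 1 rose with BE-43547A1. Their summed level was 2919, 2670.4 and 2984 CPM with rakicidin A, 2389, 3095 and 2445 CPM with BE-43547A1 and 2467, 2879.9 and 4393 CPM with DMSO, so that DMSO replicate 3, the lowest of its group in the nuclear subunits, was the highest here. MT-ND4 of complex I fell with both (-0.46 ± 0.11 with rakicidin A and -0.42 ± 0.11 with BE-43547A1) and stood at -0.33 with rakicidin A and -0.30 with BE-43547A1 without that library. MT-CO3 of complex IV (-0.70 ± 0.20 with rakicidin A and -0.53 ± 0.20 with BE-43547A1) stood at -0.23 with rakicidin A and -0.072 with BE-43547A1 without it, and MT-ND3 (-0.59 ± 0.21 with rakicidin A and -1.27 ± 0.21 with BE-43547A1) at -0.16 with rakicidin A and -0.85 with BE-43547A1. Without it MT-ND3 no longer passed for rakicidin A (adjusted p = 0.253) nor MT-CO3 for BE-43547A1 (adjusted p = 0.459). The MT-ND3 call for rakicidin A was also lost without rakicidin A replicate 2 (0.109), and the MT-CO3 call for BE-43547A1 without its replicate 1 (0.0734) or 3 (0.0918).

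The upstream windows of the subunits were searched for the letters of 3 motifs known from respiratory genes, on both strands, with no overlap between different motifs. A RefSeq window was at hand for 64 of the 78. The NRF1 letters GCATGCGC were found in 13 (20.3%), against 2.63% of 35116 promoters. Those promoters were all the windows at hand, not limited to genes tested here, so the sets are unlike. The ETS letters CCGGAAG were in 16 (25%, against 8.52%) and TGACG in 22 (34.4%, against 21.2%). Subunits with and without the NRF1 letters had medians of -0.30 and -0.30 with rakicidin A and of -0.092 and -0.092 with BE-43547A1. For the ETS letters the medians with and without were -0.24 and -0.31 with rakicidin A and -0.097 and -0.092 with BE-43547A1. For TGACG they were -0.29 and -0.305 with rakicidin A and -0.043 and -0.13 with BE-43547A1. A match of letters is a description of the window and does not show binding.

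Many subunit transcripts are short, and the shorter transcripts of other genes also had the lower median with rakicidin A. With rakicidin A the 44 subunits with transcripts under 1 kb had a median of -0.32 and the 34 longer ones -0.29, while other protein-coding genes stood at -0.19 (n = 653) and 0.015 (n = 11936). Under 1 kb 70.5% of the subunits fell, against 42.3% of the other genes, and at 1 kb or more 61.8% fell, against 35.4%. With BE-43547A1 the medians were -0.083 and -0.092 for the subunits and -0.014 and -0.071 for the other genes. In the direct comparison they were -0.30 and -0.069 for the subunits, and -0.15 and 0.083 for the other genes, so that in both sets rakicidin A was lower relative to BE-43547A1 in the shorter transcripts. Across the 78 subunits Spearman's rho of length and log2 fold change was 0.20 with rakicidin A, -0.12 with BE-43547A1 and 0.39 in the direct comparison, a description over genes that share libraries. The part of length in the results was not tested.

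**Figure D4:**
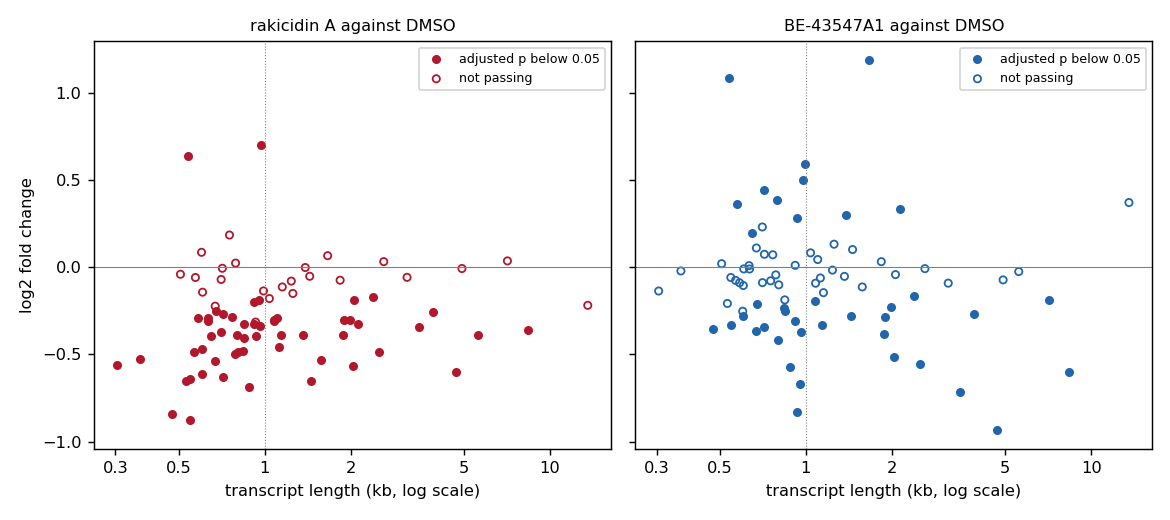
Log2 fold change against DMSO (vertical axis) by transcript length in kilobases (log scale) for the 78 subunits, with rakicidin A on the left and BE-43547A1 on the right. Filled points passed, open points did not, and the dotted line marks 1 kb, below which the medians were -0.32 with rakicidin A and -0.083 with BE-43547A1.

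Reads shared with other loci touch some of these values. In GENCODE v29, 41 of the 78 tested subunits have no exon overlap with another gene, and of these 32 fell and 1 rose with rakicidin A (32.7% and 31.9% of all features) and 18 fell and 3 rose with BE-43547A1 (35.1% and 35.3% of all features). For 15, more than 25% of the exon length is shared, among them ATP5O, ATP5J, COX6A1, COX6B2, NDUFB8 and NDUFV2, and with the strand setting of the counting not given such reads may be lost or misplaced. Pseudogene rows were found for 39 subunits, and in 6 they held more than 10% as many counts as the gene: NDUFV2, COX6A1 (208%), ATP5E (21.95%), NDUFA9 (21.5%), NDUFB8 (20.9%) and SDHA (13.1%). Among the larger of these rows, NDUFV2P1 and SDHAP3 fell with both compounds, SDHAP1 with BE-43547A1 only and NDUFB8P2 with rakicidin A only. COX6A1P2, ATP5EP2 and NDUFA9P1 passed for neither compound, although calls were made for their genes. The values of these genes are uncertain to that extent.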

How the data were processed

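RNA-seq libraries of total RNA, sequenced as paired reads of 76 bases on an Illumina NextSeq per the labels' protocols, were deposited by the authors as whole-number counts per annotated feature. TopHat2, HTSeq, GRCh37 and hg19 are named per the submitters' processing notes, while no source used here gives settings or strand. The 5 summary entries of the counter were left out of library sizes and tests: reads on no feature took 16.4 to 20.8%.

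The deposited counts of all 9 libraries were fitted with edgeR 4.0.16 in R 4.3.3 (filterByExpr, TMM, 1 mean per group, quasi-likelihood test with 6 residual degrees of freedom, Benjamini-Hochberg adjustment over 22353 features, threshold 0.05). The fit was also run on simulated data in which few genes changed, in random directions, so that run does not bear on the choice of scale. Named subunits were those with the smallest p per complex, direction and comparison, isoform families, SDHA to SDHD, CYCS and CYC1, and, from each pathway list, the genes with the smallest product of p-values. The subunits and lists were chosen with earlier results of these data known, and the split of complexes into core, accessory and other parts was made after values were seen. Transcript lengths and exon overlaps came from GENCODE v29 and promoters from RefSeq. Alternatives were other scalings, filters and tools (DESeq2 1.42.0, limma 3.58.1), a replicate block, a fold minimum and leaving out each library. The result of 1 named subunit is not reported here.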

Additional observations from a re-analysis of the deposited data

How the results depend on the processing

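Scaling, the size of the change and the libraries kept were the choices that moved the counts of subunits past the threshold. With total counts alone, 1 subunit rose and 71 fell with rakicidin A, 4 rose and 58 fell with BE-43547A1, and 4 were higher and 52 lower with rakicidin A than with BE-43547A1. This scale turned the direction of NDUFS1 (-0.32), NDUFS8 (-0.33), TMEM70 (-0.078), APAF1 (-0.12) and SLC25A6 (-0.023) with rakicidin A, and of ATP5J (-0.042) and COX4I1 (-0.16) with BE-43547A1. With a log2 fold change of at least 0.5 as a further condition, 2 rose and 14 fell with rakicidin A, 3 rose and 8 fell with BE-43547A1, and 1 was higher and 11 were lower in the direct comparison. The shares that fell were then 17.9% with rakicidin A, against 24.2% of all features, and 10.3% with BE-43547A1, against 25.5%. The share lower in the direct comparison was 14.1%, against 14.8%. The shares that rose were 2.56% with rakicidin A, against 24% of all features, and 3.85% with BE-43547A1, against 27.5%. In the direct comparison 1.28% were higher, against 11%. At this size the lower share was not above that of all features, while lower subunits still outnumbered higher ones. Leaving out 1 library at a time gave 2 to 3 higher and 45 to 55 lower with rakicidin A, 9 to 13 higher and 23 to 37 lower with BE-43547A1, and 5 to 8 higher and 31 to 43 lower between the compounds. The lower shares with rakicidin A ran from 57.7% (30.2% of all features) without DMSO replicate 1 to 70.5% (31.4%) without replicate 3. With BE-43547A1 they ran from 29.5% (32.4%) without its replicate 2 to 47.4% (34.2%) without DMSO replicate 3, on either side of all features. Between the compounds they ran from 39.7% (16.9%) without rakicidin A replicate 3 to 55.1% (23.6%) without DMSO replicate 3. Each higher share was below that of all features. DESeq2, limma-voom, DESeq2's size factors, the 6 libraries of a comparison, GENCODE features alone and no filter on low counts stayed within 1.5 times of every count. Same-numbered libraries correlated at -0.175 to 0.339 in their deviations from the group means and different-numbered ones at -0.429 to 0.305, so the numbers were not taken as pairs. With a replicate block the counts were 2 and 52, 11 and 29, and 8 and 40. The higher shares were 2.56%, 14.1% and 10.3%, against 31.8%, 35.2% and 23.9% of all features. The lower shares were 66.7%, 37.2% and 51.3%, against 32.4%, 34.9% and 22.3%. For subunits at a few CPM, such as SDHC, NDUFA11 and COX6B2, depth limits the precision.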
